A study of Homo sapiens with 4 samples.

Results

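The genes described here build and run the mitotic spindle: kinases and cyclins of mitotic entry, kinetochore and checkpoint proteins, kinesins, condensin and the cytokinesis machinery. The 59 genes were listed by symbol for these functions. The list uses no measured value, but it was drawn up with earlier results of these data known, so its counts describe these genes and are not those of a set chosen blind. All 59 symbols were found among the 55764 gene names of the table, and all 59 were among the 14306 genes that passed the filter on low values, a mean of at least 1 FPKM (reads or fragments divided by gene length in kilobases and by the library's mapped total). RNA of TE5, a cell line from a human oesophageal squamous cell carcinoma, was sequenced in bulk in 4 libraries. In 2 of them the cells carried a lentiviral vector with a CMV promoter that expresses ETS1, a transcription factor; the other 2, the controls, come from TE5 cells given the backbone without it. The labels describe virus made in HEK293T cells and infection of the target cells with polybrene, and report 1 cell line only. Whether the libraries numbered 1 and 2 come from separate cultures is not stated, so the p-values measure the spread between these libraries, which may be technical.

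When a cell enters mitosis, cyclin B with CDK1 drives chromosome condensation and spindle assembly. Kinetochores, built on the CENP-A chromatin of the centromere, attach chromosomes to microtubules through the NDC80 complex, and the spindle checkpoint holds back the anaphase-promoting complex (APC/C) until attachment is complete. Most of these genes are transcribed late in the cell cycle. They are held off by the DREAM complex and switched on by B-MYB with MuvB and by FOXM1, through a promoter element called the cell cycle genes homology region (CHR), often with CCAAT boxes bound by NF-Y. In bulk RNA, more cells in G2 or mitosis and more RNA per such cell cannot be told apart.

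ETS1 itself was listed at 0.491 and 0.509 FPKM in the controls and at 1.84 and 1.87 FPKM in the ETS1 libraries, a ratio of 3.71. As a difference in log2(FPKM + 1) this came to 0.93 (limma adjusted p 0.000704), smaller than the ratio because 1 is added to values near 0.5; in the authors' deposited table its log2 fold change was 1.84. ETS1 passed the filter on low values only through the ETS1 libraries. Reads recovered from the FPKM values numbered 40356564 and 44119426 in the controls and 57269727 and 56502625 in the ETS1 libraries. The 59 genes had between 1038 and 34627 recovered reads each per library. Of the epithelial markers, the paired keratins KRT8 and KRT18 changed in opposite directions: KRT8 rose from 3.89 ± 0.0277 to 6.53 ± 0.0770 FPKM and KRT18 fell from 10.4 ± 0.217 to 8.32 ± 0.0402 FPKM (SD, n = 2 each; limma adjusted p 0.000591 and 0.00223). KRT5, KRT14 and TP63, which mark squamous cells, were at most at 0.0165 FPKM in any library, so these 3 were at or near 0. The 8 epithelial markers summed to 16.1 to 16.3 FPKM in the controls and 16.9 to 17.0 FPKM in the ETS1 libraries. Most of these sums was KRT8 and KRT18, and 4 of the 8 were under 1 FPKM in every library. Mean EPCAM went from 1.36 to 1.02 FPKM and was not called. Mean CDH1 went from 0.569 to 0.998 FPKM and did not pass the filter, and KRT19 was at most at 0.0224 FPKM. The 7 fibroblast markers summed to 2.20 to 2.35 FPKM against 3.17 to 3.28 FPKM, with 6 of the 7 under 1 FPKM in every library. The 6 leukocyte markers summed to 1.37 to 1.603 FPKM against 2.31 to 2.49 FPKM, with 5 of the 6 under 1 FPKM in every library and PTPRC, the pan-leukocyte gene, at most at 0.0117 FPKM. The 3 endothelial markers listed summed to at most 0.0789 FPKM. The part of these marker differences in the results was not tested.

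The promoters of the 4 genes with the largest rises among those holding a CHR are shown first, since these genes rose together and the CHR is present in most of the promoters matched. Each is a RefSeq window on GRCh38.p14 of 250 bases before and 50 bases after the annotated start, 5′ to 3′ on the gene's strand. Capitals mark every CHR (TTTGAA, or TTCAAA on the other strand) and every CCAAT box (CCAAT, or ATTGG on the other strand).
SMC4 (chr3:160399400-160399699, plus strand): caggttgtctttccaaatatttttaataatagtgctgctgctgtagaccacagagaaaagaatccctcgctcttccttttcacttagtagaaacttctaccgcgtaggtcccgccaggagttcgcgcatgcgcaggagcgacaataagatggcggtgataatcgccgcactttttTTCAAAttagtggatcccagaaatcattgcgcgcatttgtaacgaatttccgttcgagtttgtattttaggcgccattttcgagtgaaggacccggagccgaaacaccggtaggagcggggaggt
KIF14 (chr1:200620702-200621001, minus strand): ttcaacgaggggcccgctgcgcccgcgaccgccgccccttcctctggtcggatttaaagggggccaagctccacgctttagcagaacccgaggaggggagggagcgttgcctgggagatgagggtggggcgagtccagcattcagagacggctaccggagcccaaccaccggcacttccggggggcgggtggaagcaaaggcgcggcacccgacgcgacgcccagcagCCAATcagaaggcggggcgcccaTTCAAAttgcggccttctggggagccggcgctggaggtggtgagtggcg
MKI67 (chr10:128126374-128126673, minus strand): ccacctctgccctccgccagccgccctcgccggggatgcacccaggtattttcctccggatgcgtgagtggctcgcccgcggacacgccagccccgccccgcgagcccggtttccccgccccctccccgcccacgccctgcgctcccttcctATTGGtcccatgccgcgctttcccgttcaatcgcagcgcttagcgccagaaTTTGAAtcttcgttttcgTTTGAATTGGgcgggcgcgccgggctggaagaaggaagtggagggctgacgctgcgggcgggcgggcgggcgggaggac
ECT2 (chr3:172750476-172750775, plus strand): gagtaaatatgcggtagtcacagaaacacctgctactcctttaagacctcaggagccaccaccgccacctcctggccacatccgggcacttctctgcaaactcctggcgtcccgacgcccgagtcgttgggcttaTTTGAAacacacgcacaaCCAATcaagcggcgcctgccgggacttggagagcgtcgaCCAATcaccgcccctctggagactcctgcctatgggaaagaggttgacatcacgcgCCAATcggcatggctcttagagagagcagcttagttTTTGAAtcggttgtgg

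In these letters, counting the start as position 1 and the base before it as position -1, the SMC4 window held 1 CHR, on the other strand, with its first base at position -75, and no CCAAT box. This position counts from the RefSeq start. GENCODE 29, the annotation used for gene positions below, starts SMC4 further upstream, at 160399274, so the whole window lies inside that gene model. The KIF14 window held a CHR on the other strand at position 2 and a CCAAT box at position -22. MKI67 had CHR matches at positions -47 and -29, the second sharing a base with a CCAAT box on the other strand at position -24, and a further CCAAT box on that strand at position -98. ECT2 had CHR matches at positions -115 and 35 and CCAAT boxes at positions -97, -58 and -2. Of the 59 genes, 51 matched a promoter by symbol, and FOXM1, AURKA, BIRC5, BUB3, TTK, TPX2, RACGAP1 and UBE2C did not.

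A CHR was found in 36 of the 51 promoters (70.6%), against 9.17% of the 8924 promoters of tested genes and 15.4% of all 27305 promoters in the table. Of the 46 CHR matches in the 51 promoters, 35 began within 100 bases of the start. A CCAAT box was found in 38 (74.5%), against 37.0% of the tested genes' promoters and 35.7% of all. Both elements were present in 28 of the 51 (54.9%), against 6.08% of all promoters. The ETS core (CCGGAA, or TTCCGG on the other strand), the sequence that ETS factors bind, was found in 17 (33.3%), against 30.7% of the tested genes' promoters and 17.6% of all. An E2F site (GGCGGGA, or TCCCGCC) was found in 16 (31.4%), against 26.2% and 15.5%. Among the 36 genes with a CHR, 30 were called higher and 3 lower, with a median log2 change of 0.36, and among the 15 without one 11 were called higher and 2 lower, with a median of 0.23; the difference was not tested. Among the 17 with an ETS core the median was 0.36, and among the 34 without it 0.33. A match describes letters in a window and shows no binding.

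**Figure D1:**
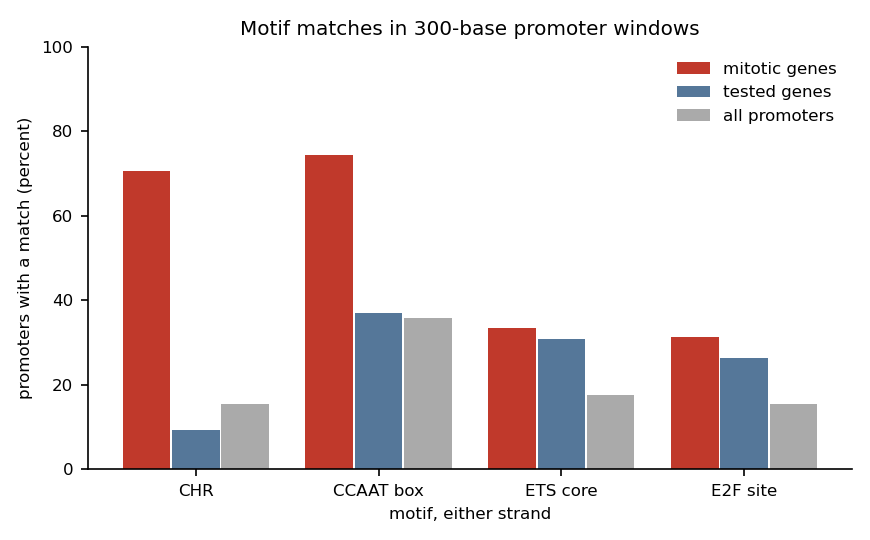
Bars give the percent of 300-base promoter windows with at least 1 match on either strand. They cover the 51 of 59 mitotic genes and the 8924 of 14306 tested genes that matched a promoter by symbol, and all 27305 promoters. The CHR was in 70.6% of the mitotic gene promoters and 9.17% of the tested genes' promoters, while the ETS core was in 33.3% and 30.7%.

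Across the 59 genes most transcripts were higher in the ETS1 libraries, by modest amounts. On the log2(FPKM + 1) scale, limma called 47 higher and 5 lower at an adjusted p under 0.05, where it called 30.7% of all tested genes higher and 28.4% lower. The median log2 change was 0.35, against 0.016 over all 14306 tested genes. The changes ran from -0.44 for CCNB2 to 0.86 for SMC4. No gene doubled and 8 of the 59 had an FPKM ratio over 1.5. Both ETS1 values lay above both control values for 49 genes and below them for 5, where this held for 43.1% and 38.9% of all tested genes. In the authors' deposited table, 44 of the 59 were higher and 5 lower at an adjusted p under 0.05, where 25.3% and 25.9% of the genes with an adjusted p were called higher and lower, and the 44 and 5 were all called in the same direction by limma. The smallest two-sided p of an exact permutation test with 2 libraries a group is 0.333, so each gene's p rests on the variance model shared across genes.

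Summed over the 59 genes, the level was 1764 and 1738 FPKM in the controls and 2072 and 2064 FPKM in the ETS1 libraries, or 0.481% and 0.471% against 0.566% and 0.566% of each library's summed FPKM. Both ETS1 sums were above both control sums. The genes were well expressed: per length, their control means ran from 4.88 FPKM (CIT) to 147 FPKM (UBE2C) with a median of 22.2 FPKM, where the median of all tested genes was 6.13 FPKM. Replicates lay close together. The median distance between the 2 libraries of a group, on the log2(FPKM + 1) scale, was 0.046 in the controls and 0.028 in the ETS1 libraries, and the largest were 0.19 for MAD2L1 in the controls and 0.15 for ECT2 in the ETS1 libraries.

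**Figure D2:**
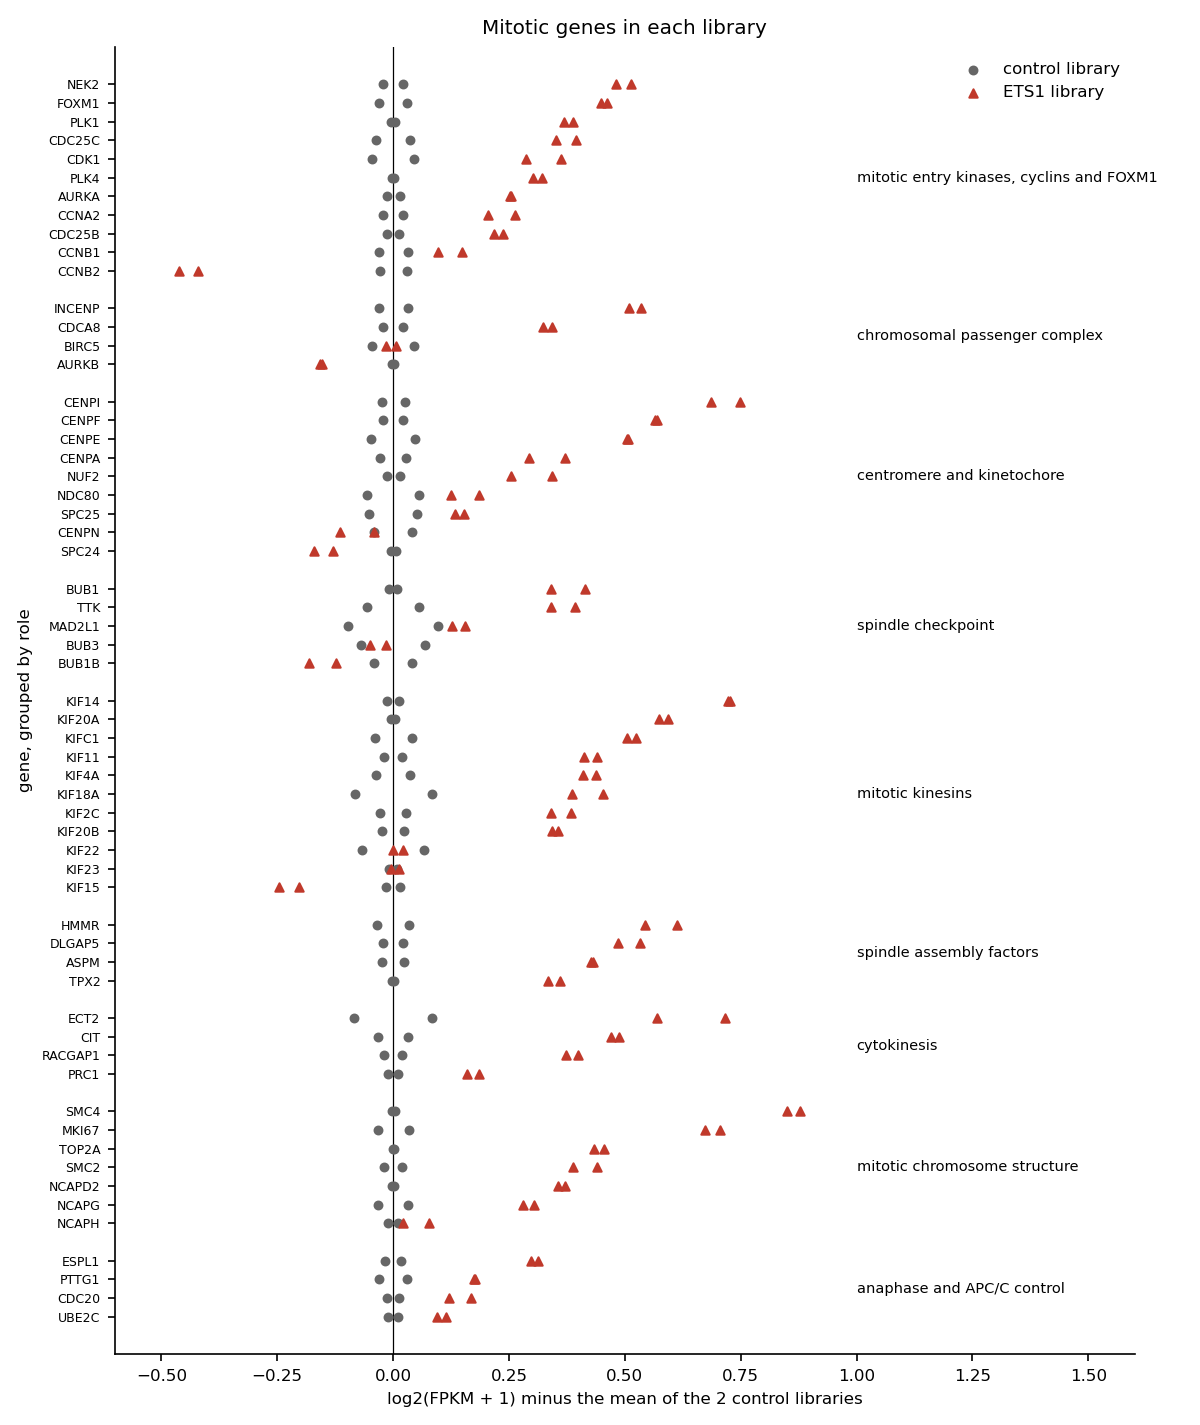
Each row is 1 gene, ordered within its role by log2 change; the horizontal axis is log2(FPKM + 1) minus the control mean, with circles for the 2 control and triangles for the 2 ETS1 libraries. SMC4 stands furthest right at 0.86 and CCNB2 furthest left at -0.44, and replicate points lie close together for most genes.

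**Figure D3:**
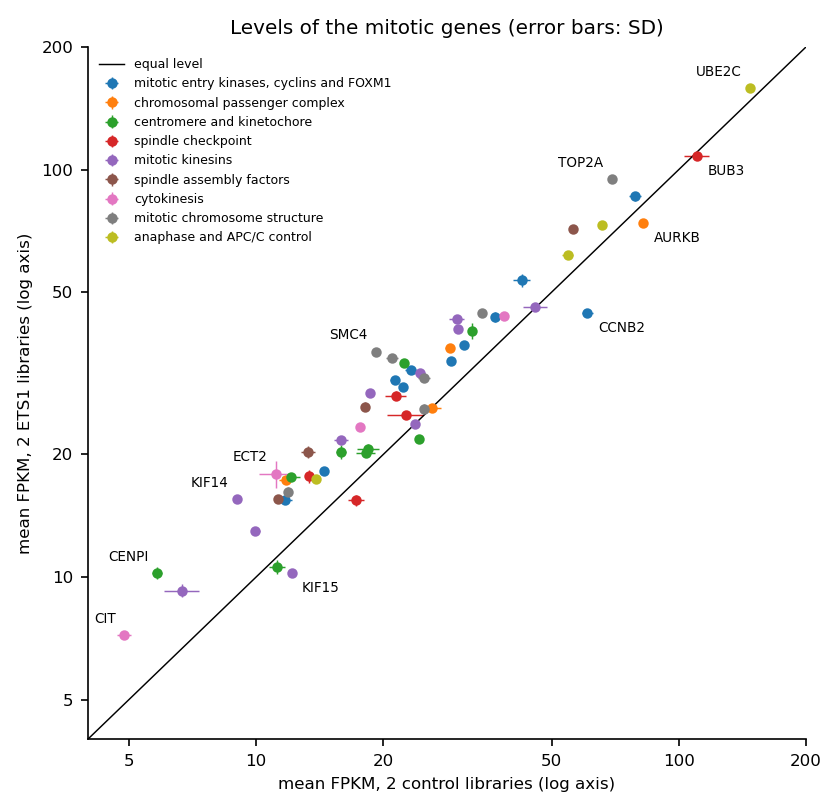
Points are the 59 genes at their mean FPKM in the 2 control libraries (horizontal, log axis) and the 2 ETS1 libraries (vertical, log axis), coloured by role, with SD bars. Most points lie above the line of equal level; CCNB2, AURKB and KIF15 lie below it, and UBE2C has the highest level.

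Of the 11 genes of mitotic entry, 10 were called higher and 1 lower, with a median log2 change of 0.31. NEK2, a centrosome kinase (chromosome 1, 211658657 to 211675630, GENCODE 29 on GRCh38, as for all positions below), stood at 20.9 and 21.6 FPKM in the controls and 30.1 and 30.8 FPKM in the ETS1 libraries. Both ETS1 values lay above both controls (log2 change 0.50, SE 0.0317, limma adjusted p 0.000651). FOXM1, the transcription factor that activates late cell cycle genes (chromosome 12, 2857681 to 2877155), was at 22.7 and 23.7 FPKM in the controls and 32.03 and 32.3 FPKM in the ETS1 libraries, without overlap (log2 change 0.46, SE 0.0328, limma adjusted p 0.000803). The ratios of the means were 1.43 for NEK2 and 1.39 for FOXM1. The cyclin-dependent kinase CDK1 rose by 0.32 and its cyclins by 0.23 for CCNA2 and 0.12 for CCNB1, with limma adjusted p-values of 0.00396, 0.00426 and 0.0357. The phosphatases that activate CDK1 rose by 0.37 (CDC25C) and 0.23 (CDC25B). Among the kinases, PLK1, which acts through most of mitosis, rose by 0.38, PLK4, which starts centriole duplication, by 0.31 and AURKA, which matures centrosomes, by 0.25. With the median change of their chromosomal neighbours removed, NEK2 was at 0.31, below FOXM1 at 0.36, and PLK4 was at 0.13 and CDC25B at 0.14, all still passing. With a trend in gene length and GC content removed, CDK1 and PLK4 were both at 0.19, and CCNB1 did not pass under 6 alternatives: trimmed-mean scaling, no filter on low values, no intensity trend, and without ETS1 replicate 1, ETS1 replicate 2 or control replicate 2.

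CCNB2, the other B-type cyclin (chromosome 15, 59105078 to 59125045), went the opposite way. It was at 62.03 and 59.5 FPKM in the controls and 45.1 and 43.8 FPKM in the ETS1 libraries, with means going from 60.8 ± 1.75 to 44.5 ± 0.926 FPKM (SD, n = 2 each) and a ratio of 0.732. Both ETS1 values lay below both controls (log2 change -0.44, SE 0.0336, limma adjusted p 0.000886). CCNB1 and CCNB2 thus ended at 86.01 and 44.5 FPKM in the ETS1 libraries, from 78.9 and 60.8 FPKM. CCNB2 lies on chromosome 15, whose genes were mostly lower, and with the median change of its neighbours removed it still fell, by 0.20 on the log2 scale (limma adjusted p 0.000966). CCNA2 did not pass with that median removed (0.063, limma adjusted p 0.140). Under quantile normalization CCNA2 and CCNB1 were at 0.35 and 0.26.

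The chromosomal passenger complex corrects faulty attachments and guides cytokinesis, and its 4 subunits split. INCENP, its scaffold (chromosome 11, 62123973 to 62153163), was at 11.5 and 12.01 FPKM in the controls and 17.4 and 17.1 FPKM in the ETS1 libraries (log2 change 0.52, SE 0.0357, limma adjusted p 0.000736). CDCA8 (borealin; chromosome 1, 37692418 to 37709719) was at 28.2 and 29.1 FPKM in the controls and 36.7 and 36.1 FPKM in the ETS1 libraries (log2 change 0.33, SE 0.0298, limma adjusted p 0.00125). Neither overlapped between groups. AURKB, the complex's kinase (chromosome 17, 8204733 to 8210600), was lower, at 82.6 and 82.4 FPKM in the controls and 74.1 and 73.8 FPKM in the ETS1 libraries, with both ETS1 values below both controls (log2 change -0.16, SE 0.0243, limma adjusted p 0.00533). The fall of AURKB did not pass under quantile normalization (-0.023, limma adjusted p 0.425) or with a length and GC trend removed (-0.038, limma adjusted p 0.266), and it was at -0.25 with the local median removed. BIRC5 (survivin) was at 26.98 and 25.3 FPKM in the controls and 25.8 and 26.2 FPKM in the ETS1 libraries, and the groups overlapped (log2 change -0.0054, SE 0.0397, limma adjusted p 0.917).

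Of the 9 centromere and kinetochore genes, 7 were called higher and 1 lower, with a median of 0.30. CENPI, a subunit of the constitutive centromere network (chromosome X, 101098218 to 101163681), was at 5.94 and 5.70 FPKM in the controls and 10.5 and 9.97 FPKM in the ETS1 libraries, a ratio of 1.75 without overlap (log2 change 0.72, SE 0.0410, limma adjusted p 0.000580). CENPF, a large protein of the outer kinetochore (chromosome 1, 214603195 to 214664588), was at 22.001 and 22.7 FPKM in the controls and 33.6 and 33.6 FPKM in the ETS1 libraries, again without overlap (log2 change 0.57, SE 0.0294, limma adjusted p 0.000511). CENPE, the kinetochore kinesin, rose by 0.51 and CENPA, the centromeric histone H3 variant, by 0.33 (limma adjusted p 0.00102 and 0.00278). CENPE was at 0.24 with the length and GC trend removed (limma adjusted p 0.00123). CENPN, which binds CENP-A nucleosomes, was at 11.6 and 10.9 FPKM in the controls and 10.3 and 10.9 FPKM in the ETS1 libraries, and the groups overlapped (log2 change -0.078, SE 0.0463, limma adjusted p 0.204).

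The 4 subunits of the NDC80 complex, the microtubule hook of the kinetochore, changed by different amounts. NUF2 rose by 0.30 (limma adjusted p 0.00326). NDC80 was at 17.6 and 19.2 FPKM in the controls and 21.04 and 20.1 FPKM in the ETS1 libraries (log2 change 0.15, SE 0.0493, limma adjusted p 0.0462), and SPC25 was at 18.9 and 17.5 FPKM in the controls and 20.3 and 20.04 FPKM in the ETS1 libraries (log2 change 0.14, SE 0.0433, limma adjusted p 0.0393). Their ETS1 values lay above both controls by small margins. SPC24 (chromosome 19, 11131520 to 11155808) was at 24.2 and 24.4 FPKM in the controls and 21.5 and 22.2 FPKM in the ETS1 libraries, with both ETS1 values below both controls (log2 change -0.15, SE 0.0300, limma adjusted p 0.0113). With the local chromosomal median removed, NDC80, SPC25 and SPC24 did not pass (log2 changes 0.0028, 0.064 and -0.064, limma adjusted p 0.961, 0.203 and 0.118). In the authors' deposited table NDC80 and SPC25 did not pass either (adjusted p 0.0523 and 0.151).

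The spindle checkpoint genes were mixed, with 2 of 5 called higher, 1 lower and a median of 0.14. BUB1, a checkpoint kinase (chromosome 2, 110637698 to 110678114), was at 13.4 and 13.3 FPKM in the controls and 18.1 and 17.2 FPKM in the ETS1 libraries (log2 change 0.38, SE 0.0370, limma adjusted p 0.00153). TTK, the kinase that starts checkpoint signalling (chromosome 6, 80003887 to 80042527), was at 22.3 and 20.5 FPKM in the controls and 27.3 and 28.4 FPKM in the ETS1 libraries (log2 change 0.37, SE 0.0477, limma adjusted p 0.00317). For both, the groups did not overlap, and TTK was at 0.20 with the local median removed (limma adjusted p 0.00392). BUB1B (BUBR1), part of the complex that inhibits the APC/C (chromosome 15, 40161023 to 40221136), was at 17.8 and 16.7 FPKM in the controls and 15.1 and 15.8 FPKM in the ETS1 libraries, with both ETS1 values below both controls (log2 change -0.15, SE 0.0423, limma adjusted p 0.0314). It also lies on chromosome 15, and with the local median removed its change reversed to 0.17 (limma adjusted p 0.00658). MAD2L1, which binds CDC20, was at 24.2 and 21.1 FPKM in the controls and 24.8 and 25.3 FPKM in the ETS1 libraries (log2 change 0.14, SE 0.0680, limma adjusted p 0.132), with a wide gap between the controls. BUB3, a shared subunit of checkpoint complexes, was at 116 and 105 FPKM in the controls and 106 and 109 FPKM in the ETS1 libraries, with overlapping groups (log2 change -0.033, SE 0.0513, limma adjusted p 0.611).

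Mitotic kinesins had a median of 0.42, with 8 of 11 called higher and 1 lower. KIF14, which recruits citron kinase to the midbody (chromosome 1, 200551497 to 200620734), was at 9.09 and 8.90 FPKM in the controls and 15.5 and 15.5 FPKM in the ETS1 libraries, a ratio of 1.72 (log2 change 0.72, SE 0.0305, limma adjusted p 0.000439). KIF20A, a kinesin of the central spindle (chromosome 5, 138178719 to 138187715), was at 18.6 and 18.5 FPKM in the controls and 28.5 and 28.1 FPKM in the ETS1 libraries (log2 change 0.58, SE 0.0273, limma adjusted p 0.000482). Neither overlapped between groups. KIF11 (Eg5), which pushes the spindle poles apart, and KIFC1, a minus-end motor, rose by 0.43 and 0.51. KIF4A and KIF18A, which act on chromosomes and microtubule ends, rose by 0.42 and 0.42. KIF2C, a microtubule depolymerase, rose by 0.36 and KIF20B, a kinesin of cytokinesis, by 0.35, and these 6 had limma adjusted p-values of at most 0.00541. KIF20B did not pass with the length and GC trend removed (0.080, limma adjusted p 0.0898), and KIF18A was then at 0.26. With the local median removed, KIF11 was at 0.28 and KIF20B at 0.23.

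KIF15, a spindle motor that can stand in for KIF11 (chromosome 3, 44761717 to 44873376), was at 11.99 and 12.3 FPKM in the controls and 10.4 and 10.1 FPKM in the ETS1 libraries, with both ETS1 values below both controls (log2 change -0.22, SE 0.0343, limma adjusted p 0.00500). It lies on the short arm of chromosome 3, among neighbours with a median change of -0.16, and did not pass with that median removed (-0.063, limma adjusted p 0.162). KIF22, a chromosome-arm kinesin, was at 43.6 and 47.9 FPKM in the controls and 46.4 and 45.7 FPKM in the ETS1 libraries (log2 change 0.010, SE 0.0502, limma adjusted p 0.872). KIF23, the motor of centralspindlin (chromosome 15, 69414246 to 69448427), was at 23.9 and 23.6 FPKM in the controls and 23.96 and 23.7 FPKM in the ETS1 libraries (log2 change 0.0049, SE 0.0274, limma adjusted p 0.890). Both overlapped between groups. KIF23 is the third gene here on chromosome 15, and its change was 0.16 with the local median removed (limma adjusted p 0.00233) and -0.093 with the length and GC trend removed (limma adjusted p 0.0313).

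All 4 spindle assembly factors were called higher, with a median of 0.47. HMMR, which binds hyaluronan at the cell surface and microtubules in the spindle (chromosome 5, 163460203 to 163491945), was at 13.6 and 12.9 FPKM in the controls and 19.8 and 20.8 FPKM in the ETS1 libraries (log2 change 0.58, SE 0.0421, limma adjusted p 0.000819). DLGAP5 (HURP), which stabilises kinetochore fibres (chromosome 14, 55148112 to 55191678), was at 18.4 and 17.8 FPKM in the controls and 26.6 and 25.7 FPKM in the ETS1 libraries (log2 change 0.51, SE 0.0338, limma adjusted p 0.000704). ASPM, a spindle pole protein, rose by 0.43, and TPX2, the activator of AURKA, by 0.35 (limma adjusted p 0.000866 and 0.000845). For these 4 the ETS1 values lay above both controls. ASPM was at 0.20 with the length and GC trend removed (limma adjusted p 0.00168).

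The 4 cytokinesis genes were also all called higher, with a median of 0.43. ECT2, the exchange factor that activates RhoA at the cell equator (chromosome 3, 172750682 to 172821474), was at 11.8 and 10.4 FPKM in the controls and 16.96 and 18.9 FPKM in the ETS1 libraries, a ratio of 1.61 (log2 change 0.64, SE 0.0767, limma adjusted p 0.00251). Its replicates were the furthest apart among the ETS1 libraries, and the groups still did not overlap. CIT, the citron kinase of the midbody (chromosome 12, 119685790 to 119877291), was at 4.74 and 5.01 FPKM in the controls and 7.14 and 7.24 FPKM in the ETS1 libraries, without overlap (log2 change 0.48, SE 0.0403, limma adjusted p 0.00110). RACGAP1, the partner of KIF23 in centralspindlin, rose by 0.39 (limma adjusted p 0.000977), against 0.0049 for KIF23. PRC1, which bundles midzone microtubules, rose by 0.17 (limma adjusted p 0.00543); 58.4% of its exon bases in GENCODE 29 overlap those of other genes, a same-strand protein-coding model and its antisense gene, so its reads are less certain. PRC1 was at 0.28 under quantile normalization.

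Mitotic chromosome structure gave the largest single change. SMC4, an ATPase of condensin (chromosome 3, 160399274 to 160434962), was at 19.2 and 19.1 FPKM in the controls and 35.4 and 36.1 FPKM in the ETS1 libraries, with means going from 19.2 ± 0.0604 to 35.7 ± 0.503 FPKM (SD, n = 2 each) and a ratio of 1.86. The replicates of each group lay close together and the groups were far apart (log2 change 0.86, SE 0.0276, limma adjusted p 0.000417). Of its exon bases, 25.6% overlap TRIM59 or IFT80 on the other strand, and these were also called higher, by 0.38 and 0.43; with no stated use of strand, shared reads cannot be told apart. MKI67, the proliferation marker that coats mitotic chromosomes (chromosome 10, 128096659 to 128126385), was at 20.5 and 21.5 FPKM in the controls and 34.003 and 34.8 FPKM in the ETS1 libraries, a ratio of 1.64 (log2 change 0.69, SE 0.0354, limma adjusted p 0.000505). TOP2A, the topoisomerase that untangles sister chromatids, rose by 0.44 (limma adjusted p 0.000563).

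The other condensin I subunits, apart from NCAPH, followed at smaller sizes. SMC2, the partner ATPase, rose by 0.41, NCAPD2 by 0.36 and NCAPG by 0.29, with limma adjusted p-values of 0.00112, 0.000766 and 0.00233. NCAPH, the kleisin that closes the ring, was at 24.8 and 25.2 FPKM in the controls and 26.4 and 25.4 FPKM in the ETS1 libraries and did not pass (log2 change 0.049, SE 0.0322, limma adjusted p 0.239). In the control libraries SMC4 had 19.2 FPKM against 24.99 for NCAPH, and in the ETS1 libraries 35.7 against 25.9 FPKM. The order of these 2 genes per length was therefore exchanged between the groups, in both libraries of each. NCAPG shares 33.1% of its exon bases with LCORL on the other strand, which was called higher by 0.36. With the length and GC trend removed, TOP2A was at 0.29, SMC2 at 0.23 and NCAPG at 0.17, and with the local median removed NCAPG was at 0.18, all still passing.

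All 4 genes that act in anaphase or on the APC/C were called higher, with a median of 0.16. ESPL1 (separase), the protease that cuts cohesin (chromosome 12, 53268299 to 53293643), was at 13.7 and 14.03 FPKM in the controls and 17.5 and 17.3 FPKM in the ETS1 libraries (log2 change 0.30, SE 0.0303, limma adjusted p 0.00157). PTTG1 (securin), its inhibitor (chromosome 5, 160421822 to 160428744), was at 55.8 and 53.5 FPKM in the controls and 61.9 and 61.8 FPKM in the ETS1 libraries (log2 change 0.18, SE 0.0313, limma adjusted p 0.00798); it has near-identical copies elsewhere in the genome that can share reads. CDC20, the APC/C activator, rose by 0.15 and UBE2C, its ubiquitin-conjugating enzyme, by 0.10 (limma adjusted p 0.0126 and 0.0221). UBE2C did not pass in the authors' deposited table (adjusted p 0.0782). These small rises were larger under quantile normalization, at 0.32 for PTTG1, 0.29 for CDC20 and 0.30 for UBE2C, and with the length and GC trend removed, at 0.29, 0.28 and 0.27. PTTG1 was at 0.11 with the local median removed.

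Calls near the threshold depended on single libraries. Without ETS1 replicate 1, the 5 falls became 3, with SPC24 (-0.13, limma adjusted p 0.0807) and BUB1B (-0.12, 0.148) not passing, and the rises of CCNB1, NDC80, SPC25, CDC20 and UBE2C did not pass either (limma adjusted p 0.173, 0.185, 0.148, 0.0821 and 0.132). Without ETS1 replicate 2, CCNB1, NDC80, SPC25, BUB1B and UBE2C did not pass (0.0682, 0.0825, 0.114, 0.0652 and 0.0912). Without control replicate 2, this held for CCNB1, SPC25 (log2 change 0.092) and UBE2C (0.106, 0.0872 and 0.0696). Without control replicate 1, NDC80 (log2 change 0.10) and BUB1B did not pass (0.115 and 0.0882), while MAD2L1 did (0.24, limma adjusted p 0.00783). The other 45 of the 52 called genes kept their direction and call in each of these 4 fits, in which the lone library of a group is assumed to vary like the pair in the other.

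Scaling, filter and variance settings ended calls among the same small changes. CCNB1, NDC80 and SPC25 did not pass under trimmed-mean scaling (limma adjusted p 0.0599, 0.0782 and 0.0552). With no filter on low values, CCNB1, NDC80, SPC25, BUB1B and UBE2C did not pass (0.105, 0.140, 0.116, 0.0968 and 0.0526), and with no intensity trend CCNB1, NDC80, SPC25 and UBE2C did not (0.0666, 0.0680, 0.0606 and 0.0555). The fall of SPC24 did not pass under quantile normalization (-0.083, limma adjusted p 0.0701) or with the length and GC trend removed (-0.068, 0.102), and with that trend removed NDC80 did not pass either (0.10, 0.0879). UBE2C did not pass with the local median removed (0.063, 0.0816). Calls were gained by NCAPH under quantile normalization (0.13, 0.0261) and with the length and GC trend removed (0.089, 0.0490), by BUB3 with that trend removed (-0.16, 0.0129) and by MAD2L1 with voom (0.15, 0.0301). KIF23 also gained calls, in opposite directions: higher with the local median removed and lower with the length and GC trend removed. CENPN was called lower with the local median removed.

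The chromosomal position of the genes was compared with their change. On chromosome 15, 81.6% of the 364 tested protein-coding genes had a negative change, with a median of -0.23, and the 4 genes there, CCNB2, BUB1B, KIF23 and PRC1, had a median of -0.074. The local median, taken over the 25 nearest tested protein-coding genes on each side, was -0.24, -0.32, -0.16 and -0.12 for these 4. After its subtraction, BUB1B, KIF23 and PRC1 were positive (0.17, 0.16 and 0.29) and CCNB2 was negative (-0.20). On chromosome 3, SMC4 and ECT2 lie on the long arm, among neighbours with medians of 0.18 and 0.13, and KIF15 on the short arm. All 8 genes on chromosome 1 were called higher, with a median of 0.40, where the tested protein-coding genes of that chromosome had a median of 0.057. With the local median removed throughout, 45 of the 59 genes were called higher and 3 lower, and their median was 0.29. The 3 were CCNB2, AURKB and CENPN; CENPN was not called without that step.

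**Figure D4:**
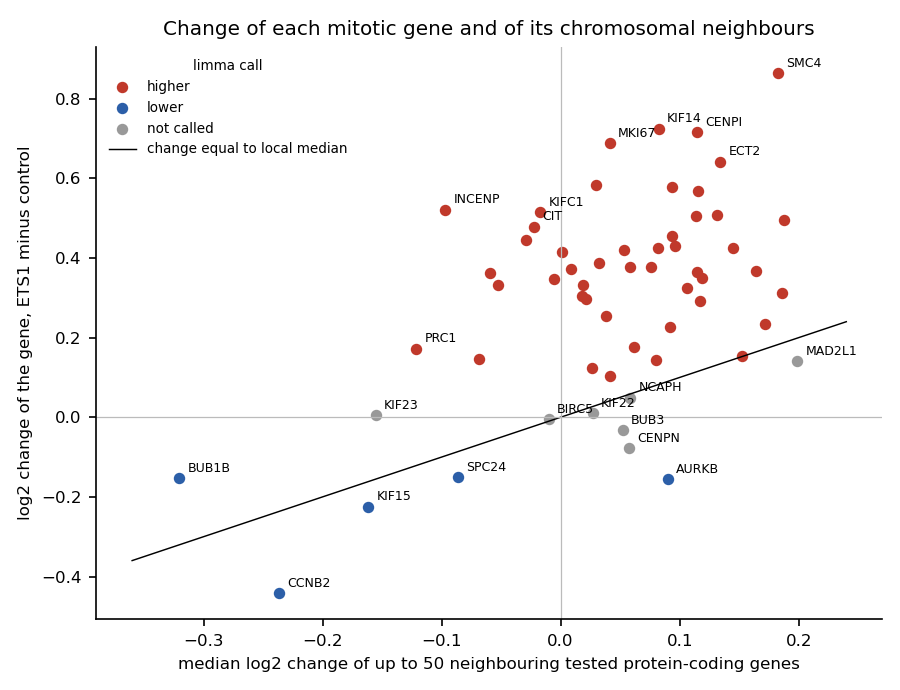
Each point is 1 of the 59 genes, with the median log2 change of its 50 or fewer tested protein-coding neighbours on the horizontal axis and its own log2 change on the vertical axis, coloured by limma call. BUB1B and KIF23 lie above the line of equal change and CCNB2 below it, all at negative local medians; SMC4 is highest at 0.86.

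Other genes of the same processes were compared through lists, each described by its counts beside all tested genes, of which 30.7% were called higher and 28.4% lower, with a median log2 change of 0.016. These lists, too, were drawn up with earlier results known. Of other centromere and kinetochore genes, 10 of 32 were called higher (31.2%) and 5 lower (15.6%), with a median of 0.018, so the share called higher was at the level of all tested genes. The largest changes were those of HJURP, the CENP-A chaperone (0.83), PMF1, of the MIS12 complex (-0.75), and SGOL2, a shugoshin that guards cohesin (0.66). HJURP was at 14.7 and 14.96 FPKM in the controls and 26.9 and 27.4 FPKM in the ETS1 libraries, without overlap. Of other spindle and centrosome genes, 16 of 25 were called higher (64%) and 5 lower (20%), with a median of 0.24, led by FAM83D (0.65), PSRC1 (0.47) and CKAP2 (0.46). Of other cytokinesis genes, 10 of 12 were called higher (83.3%) and 0 lower (0%), with a median of 0.25, led by the septin SEPT2 (0.54), DEPDC1 (0.51) and ANLN (0.43), the anillin of the cleavage furrow. Other mitotic entry and checkpoint genes, of which CCNF, CDC25A, CKS1B and CKS2 do not encode kinases, were mixed: 5 of 10 were called higher (50%) and 2 lower (20%), with a median of 0.082, with the kinase GSG2 (haspin, 0.54) and the F-box cyclin CCNF (0.36) higher and the phosphatase CDC25A (-0.37) lower.

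Among genes of condensin II, cohesin and its regulators, 9 of 13 were called higher (69.2%) and 0 lower (0%), with a median of 0.24, led by WAPAL (0.55), which releases cohesin, RAD21 (0.40), its kleisin, and PDS5B (0.39). Of the APC/C subunits and regulators, 4 of 17 were called higher (23.5%) and 8 lower (47.1%), with a median of -0.11. The largest changes were those of the subunits ANAPC10 (-0.44), CDC26 (-0.44) and CDC27 (0.38). The list also holds 3 genes that are no subunits, named after their values were seen: the activator FZR1 (0.21) and the inhibitor FBXO5 (0.34) were 2 of the 4 called higher, and UBE2S, a ubiquitin-conjugating enzyme (-0.048), was not called. Of the DREAM, MuvB and E2F regulators, 8 of 20 were called higher (40%) and 4 lower (20%), with a median of 0.10. E2F7, an E2F repressor, rose by 0.65, MYBL1 by 0.50 and LIN54, the MuvB subunit that binds the CHR, by 0.40. Named after their values were seen, MYBL2 (B-MYB; -0.24), E2F1 (-0.29), E2F2 (-0.36) and E2F4 (-0.21) were the 4 called lower.

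DNA replication and S phase genes, many of which peak before mitosis, were called in both directions, as were all tested genes: 13 of 41 were called higher (31.7%) and 17 lower (41.5%), with a median of -0.025. The share called higher was near that of all tested genes. The largest changes were POLE2 (-0.56), RFC3 (0.52) and CLSPN (0.50). POLE2, a subunit of polymerase epsilon, was at 11.2 and 10.6 FPKM in the controls and 7.24 and 6.84 FPKM in the ETS1 libraries, with both ETS1 values lower. Of the cyclin-dependent kinase inhibitors, 6 of 7 were called higher (85.7%) and 1 lower (14.3%), with a median of 0.44. CDKN2B (p15) was at 2.79 and 2.46 FPKM in the controls and 4.96 and 4.94 FPKM in the ETS1 libraries (log2 change 0.72, SE 0.0579, limma adjusted p 0.00101), CDKN1B (p27) rose by 0.63 and CDKN2C (p18) by 0.57. CDKN2A was called lower (-0.32). Differences between the lists were not tested. The local chromosomal median moved some of the genes named from these lists by over 1.5 times. After its subtraction, with no test, HJURP was at 0.39, below SGOL2 at 0.59, and SEPT2 was at 0.14, below ANLN at 0.43. DEPDC1 was then at 0.32, CKAP2 at 0.30, CDKN1B at 0.40, CDC26 at -0.29, CDC25A at -0.10 and CDKN2A at -0.49. FZR1 went from 0.21 to 0.32. Of genes not called, CKS1B went from -0.087 to -0.032, and CKS2 and UBE2S changed sign, from 0.00022 to -0.10 and from -0.048 to 0.067.

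**Figure D5:**
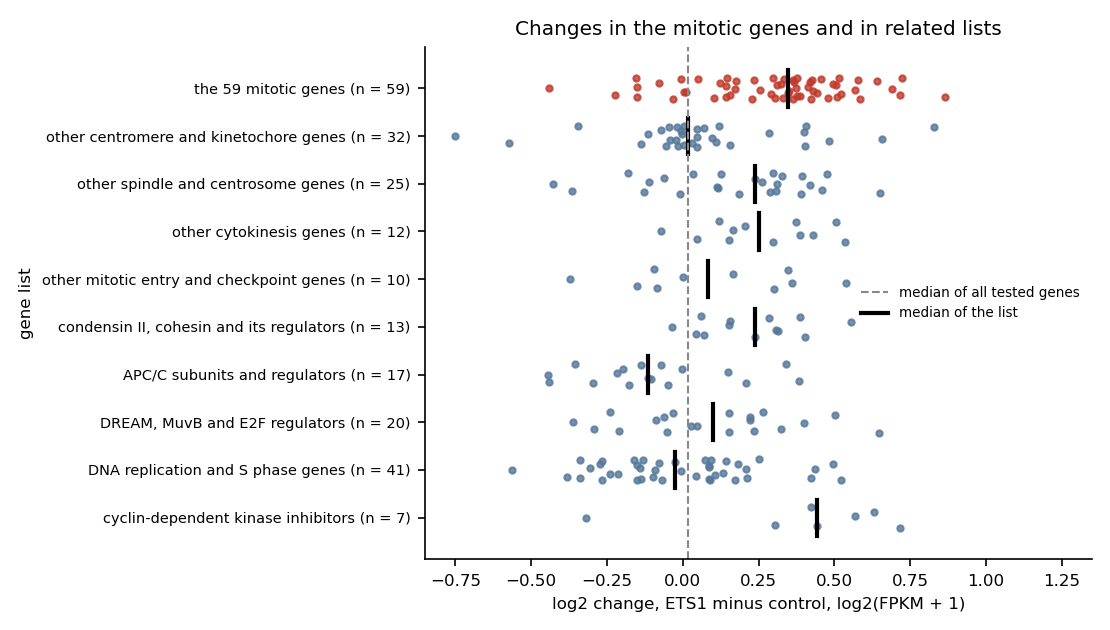
Points are the log2 changes of tested genes in each list, the thick bar is the list's median and the dashed line the median of all tested genes (0.016); the vertical scatter within a list has no meaning. The 59 mitotic genes centre on 0.35, the DNA replication and S phase genes on -0.025 and the APC/C subunits and regulators on -0.11.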

How the data were processed

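RNA of 2 control and 2 ETS1 libraries of TE5 cells was measured. The authors deposited FPKM for all genes and, in a second table, their own DESeq2 comparison; 0 FPKM values differed between the tables. HISAT2, HTSeq, DESeq2 and hg38 (GRCh38) are listed in the submitters' processing notes, without versions; annotation and use of strand are not given in the sources used here. The second table's mean normalized count is a signal the authors averaged over libraries, and its log2 fold changes, p-values and adjusted p-values are the authors', per the file headers.

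Depth is not listed and was recovered: the most frequent FPKM ratio between libraries, given by genes with equal reads, fixes the relative depths, and the deposited mean normalized counts fix each gene's reads. For the 2885 genes whose mean normalized count is below 100, 99.3% of values came within 0.05 of a whole number; for 8566 highly expressed genes, 57.8% did.

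Genes averaging 1 FPKM or more were tested on log2(FPKM + 1) with limma 3.58.1 in R 4.3.3, with a group term and an intensity trend, two-sided, Benjamini-Hochberg adjusted over 14306 genes at 0.05. The pseudocount understates the change of low genes. The fit had 2 residual and 2.84 prior degrees of freedom. It was also run on simulated data, with independently drawn libraries and far fewer changed genes than were called here. That run therefore cannot vouch for the p-values of these libraries, and no result of it is used. Positions, lengths and GC content come from GENCODE 29, matched by symbol for 88.1% of tested genes; promoters come from RefSeq. The length and GC trend was fitted with splines over 11354 protein-coding genes. The members and lists were chosen with earlier results of these data known. The text gives in full the 2 genes of each role with the largest absolute change and every gene called lower, names all others, and gives the 3 largest changes of each other list. Alternatives were another pseudocount, other filters and scalings, the replicate number as a block, no intensity trend, the authors' comparison, voom on the recovered reads, taking out a length and GC trend or of the local median, and leaving out each library. No columns of other samples were present (0).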

Additional observations from a re-analysis of the deposited data

How the results depend on the processing

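Of the 52 called genes, 41 kept their direction and call under all 15 alternatives, and the log2 change of 26 moved by over 1.5 times under at least 1 of them. The number called higher stayed between 42 and 48 of 59. The number called lower ran from 3 to 5: it was 3 under quantile normalization and 3 with the local chromosomal median removed. Equal counts did not always hold the same genes. With the length and GC trend removed, 5 were called lower, without AURKB and SPC24 but with BUB3 and KIF23. With the local median removed, BUB1B and KIF23 were among the 45 called higher. The median log2 change of 0.35 was 0.32 under trimmed-mean scaling, 0.40 under quantile normalization, 0.32 in the authors' deposited table, 0.28 with the length and GC trend removed and 0.29 with the local median removed; without 1 library it ran from 0.337 to 0.343. At a mean FPKM of at least 5, 5562 of 8215 tested genes were called in place of 8451. With the replicate block, 45 were called higher and 4 lower, with NDC80 (limma adjusted p 0.0835), BUB1B (0.0676) and UBE2C (0.0580) not passing; the numbers do not pair the libraries, since deviations from the group means correlated at -0.046 between same-numbered libraries. Signs changed for 7 genes, 6 of them not called. BIRC5 was 0.071 under quantile normalization, 0.031 without the trend and 0.0045 without the local median, and up to 0.040 without 1 library. BUB3 was 0.13 under quantile normalization, and ran from -0.10 to 0.036 without 1 library. KIF22 was -0.011 under trimmed-mean scaling, -0.015 in the authors' deposited table and -0.017 without the local median. KIF23 was -0.016, -0.018 and, without the length and GC trend, -0.093. Without the local median, BUB1B was 0.17, MAD2L1 -0.057 and NCAPH -0.0090. Without 1 library, BIRC5 ran from -0.051 to 0.040, KIF22 from -0.057 to 0.077 and KIF23 from -0.0040 to 0.014. The causes were not tested. With 2 libraries a group, changes of the size of the smaller ones here lie near the threshold.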

Other observations

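Across the 59 genes, which are not independent replicates and share the same 4 libraries, the log2 change had a Spearman rho of 0.43 with exon length, -0.28 with GC content, -0.48 with the control FPKM and 0.34 with the local chromosomal median. Over 11367 tested protein-coding genes the corresponding values were 0.29 for length and -0.28 for GC content. The median exon length of the 59 genes was 4473 bases and their median GC content 43.2%, against 5094 bases and 48.4% over those protein-coding genes. Exons of 24 of the 59 genes overlap those of another gene in GENCODE 29, by over 10% of exon bases for 9 of them.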
